A study of Mus musculus with 9 samples.

Results

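The genes described here are those of the nuclear pore complex, of the importins and exportins that carry cargo through it, of the Ran system that gives transport its direction, and of the nuclear lamina beneath the envelope. The rule that gave the members reads symbols only, and takes every row whose symbol begins with Nup, Xpo or Ipo followed by a digit, or with Kpna, Kpnb or Tnpo, together with Cse1l, Ran, Rcc1, Lmna, Lmnb1, Lmnb2 and Lbr. This gave 51 of the 24391 rows of the count table. Of these, 49 were among the 12573 genes that passed the filter on low counts and were tested. Kpna7 had 1 count in all 9 libraries together and Nup62cl had 0, so neither is discussed further.

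The cells were bone marrow cells of C57BL/6 mice aged 6 to 8 weeks that carried the AML1-ETO9a murine model of leukaemia, in which a truncated form of the AML1-ETO fusion protein drives the disease. They were sorted on CD43 (sialophorin, encoded by Spn) and the stem cell factor receptor c-Kit into CD43++ckit+, CD43+ckit- and CD43-ckit- cells, and 3 RNA-seq libraries were made from each. The mice of all 3 populations had leukaemia, and no library came from healthy marrow. The labels do not tell whether separate animals gave the libraries of 1 population, and the p-values then measure only the spread between these libraries, which may be technical.

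The nuclear pore is a channel through the nuclear envelope. Scaffold nucleoporins form an outer and an inner ring that hold it in the membrane, nucleoporins rich in phenylalanine-glycine repeats fill the channel, and further proteins make the cytoplasmic filaments and the nuclear basket. Importin alpha adaptors recognise classical nuclear localisation signals and bind importin beta, while other importins and the exportins bind their cargo directly. Rcc1, the guanine nucleotide exchange factor of Ran, keeps Ran in its GTP form inside the nucleus, and Ran-GTP releases imported cargo and loads the exportins. In maturing erythroid cells the nucleus condenses and is lost, and Xpo7 is one of the genes that erythroid cells induce late in maturation.

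Total counts ranged from 17966197 to 31781746 per library, with those of CD43-ckit- the lowest. Values are given as CPM, counts per 1000000 counts of the library after scaling by the trimmed mean of M values (TMM), and each log2 fold change gives the first population named over the second. Kit was measured at 176, 171 and 146 CPM in the CD43++ckit+ libraries, 7.80, 18.4 and 21.0 in those of CD43+ckit-, and 18.9, 41.3 and 42.1 in those of CD43-ckit-, so it separated the c-Kit+ sort from both others (log2 fold changes 3.38 (adjusted p = 0.000569) against CD43+ckit- and 2.27 (adjusted p = 0.000897) against CD43-ckit-). Spn was measured at 555, 520.3 and 432 CPM in the CD43++ckit+ libraries, 137, 232 and 213 in those of CD43+ckit-, and 71.7, 175 and 180.1 in those of CD43-ckit-, and its CD43+ckit- and CD43-ckit- libraries overlapped (0.45 (adjusted p = 0.269)). The summed level of the 10 erythroid markers with a row (of 12 listed) ranged from 1984 to 2704 CPM in CD43++ckit+, 14919 to 17775 for CD43+ckit- and 30150 to 47597 for CD43-ckit-. None of these 10 was at 0 in any library. The sum of 12 neutrophil markers ranged from 110.1 to 6891, from 566 to 3860 and from 4567 to 18399 CPM in the same order, that of 8 monocyte and macrophage markers from 12.3 to 86.5, from 12.9 to 35.7 and from 125 to 147, and that of 8 B lineage markers from 3.77 to 24.1, from 13.9 to 42.2 and from 81.8 to 212. The sum of 8 proliferation markers was 2409 to 2920, 2255 to 3410 and 1662 to 1774 CPM. The sum of 8 progenitor markers was 971 to 1339, 557 to 633 and 1105 to 1422 CPM, that of 6 mast cell and basophil markers 936 to 1854, 477 to 491 and 282 to 429, that of 6 megakaryocyte markers 7.58 to 11.9, 34.9 to 42.7 and 44.6 to 68.1, and that of 8 T and NK cell markers 5.01 to 24.7, 29.8 to 34.5 and 31.3 to 49.0.

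Promoters are shown for 4 members as examples. The levels of Ran, Ipo7 and Nup188 were highest in the CD43++ckit+ libraries, and that of Nup62 was highest in the CD43-ckit- libraries. The motifs of these 4 do not stand for those of other members with the same order of levels. Each line gives the 200 bases before the transcription start, 5′ to 3′ on the plus strand, from RefSeq on GRCm38.p6: chr5:129019956-129020155 for Ran, chr7:110018115-110018314 for Ipo7, chr2:30286216-30286415 for Nup188 and chr7:44815888-44816087 for Nup62. Capitals mark CACGTG, the E-box bound by Myc among other factors, and CCAAT or its reverse complement ATTGG, the box bound by NF-Y.
Ran: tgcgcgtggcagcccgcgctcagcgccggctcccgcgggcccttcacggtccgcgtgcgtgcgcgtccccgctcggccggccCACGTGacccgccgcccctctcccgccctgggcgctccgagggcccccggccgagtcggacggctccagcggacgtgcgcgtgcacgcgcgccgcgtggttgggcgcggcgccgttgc
Ipo7: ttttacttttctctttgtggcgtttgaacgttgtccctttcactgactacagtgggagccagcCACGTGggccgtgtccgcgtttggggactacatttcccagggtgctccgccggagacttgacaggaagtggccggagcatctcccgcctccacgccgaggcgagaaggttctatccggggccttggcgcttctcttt
Nup188: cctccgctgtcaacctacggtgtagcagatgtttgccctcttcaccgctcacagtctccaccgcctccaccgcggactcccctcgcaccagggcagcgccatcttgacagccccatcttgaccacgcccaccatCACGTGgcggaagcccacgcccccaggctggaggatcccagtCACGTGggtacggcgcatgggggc
Nup62: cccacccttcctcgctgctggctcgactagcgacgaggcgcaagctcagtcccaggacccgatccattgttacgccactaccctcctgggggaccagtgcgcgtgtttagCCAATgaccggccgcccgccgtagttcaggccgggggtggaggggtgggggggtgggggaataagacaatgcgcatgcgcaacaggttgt
Ran and Ipo7 have 1 CACGTG each, Nup188 has 2, and Nup62 has 1 CCAAT. A RefSeq promoter window, which runs from 250 bases before to 50 after the start, was found for 39 of the 51 members, as 48 windows. CACGTG, which reads the same on both strands, was in 7 of these 48 windows (14.6%), against 7.2% of all 32851 windows, and the 7 genes were Ipo4, Ipo7, Nup188, Nup54, Nup93, Ran and Tnpo2. Of the 7 genes, Tnpo2 had its highest mean in CD43+ckit-. CCAAT or ATTGG was in 25 windows (52.1%, against 37.4% of all). Among these were windows of Kpnb1, Xpo1, Kpna2 and Nup155, whose means were highest in CD43++ckit+, as well as of Nup62 and Lmna. AGATAA or TTATCT, a form of the GATA motif, was in 4 windows (8.3%, against 11.2%), those of Ipo5, Kpna7, Lbr and Tnpo3. The median GC content was 64.0% in the members' windows and 52.7% in all windows. A motif here is a match of letters and says nothing of binding.

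Most of the nuclear transport genes were highest in CD43++ckit+ cells, and a small set was highest in CD43-ckit- cells. Of the 49 tested members, 31 had their means in the order CD43++ckit+, CD43+ckit-, CD43-ckit- from high to low (63.3%, against 30.9% of all genes tested), and 4 had the opposite order (8.16%, against 25.8%). Between CD43++ckit+ and CD43+ckit-, 30 members were higher in CD43++ckit+ and 4 were lower, while 19.7% and 20.1% of all genes tested were called in those directions and 39.8% in either. Against CD43-ckit-, 35 members were higher in CD43++ckit+ and 10 lower, where 39.7% and 27.7% of all genes were called (67.4% in either direction). Between CD43+ckit- and CD43-ckit-, 24 members were higher in CD43+ckit- and 11 lower, where 31% and 20.9% of all genes were called (51.9% in either). The members' share of calls toward CD43-ckit- in this last comparison, 22.4%, was near that of all genes.

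The median log2 fold change of the members was 0.63 between CD43++ckit+ and CD43+ckit-, 1.11 between CD43++ckit+ and CD43-ckit- and 0.42 between CD43+ckit- and CD43-ckit-, where the medians of all genes were 0.01, 0.19 and 0.13. The libraries of CD43++ckit+ lay wholly above those of CD43+ckit- for 33 members and wholly below for 7, as they did for 27% and 28.5% of all genes. CD43++ckit+ and CD43-ckit- were apart in this way for 35 and 11 members (42.7% and 30.5% of all genes), and CD43+ckit- and CD43-ckit- for 27 and 12 (36.1% and 28.2%). The 3 comparisons share libraries, so their counts are not independent of each other. Scaling mattered for the split. With library totals the medians of all genes were 0.28, 1.11 and 0.78, and 67%, 82.2% and 85.2% of all calls were toward the first population, against 49.4%, 58.9% and 59.7% with TMM and 45%, 49.5% and 45.8% with DESeq2 size factors. Relative to the median of all genes the members' median was 0.62, 0.92 and 0.29 with TMM, 0.61, 0.91 and 0.30 with library totals and 0.61, 0.92 and 0.29 with DESeq2 size factors. These nearly equal values follow from the subtraction, which removes a shift shared by all genes, and are no test of the scaling. Under all 3 scalings 29 members were called higher and 2 lower between CD43++ckit+ and CD43+ckit-, 32 and 5 between CD43++ckit+ and CD43-ckit-, and 18 and 9 between CD43+ckit- and CD43-ckit-. With DESeq2 size factors alone, 18.2%, 32.8% and 22.3% of all genes were called higher in these comparisons. With library totals alone, 13.8%, 13.3% and 9.47% were called lower. Between CD43+ckit- and CD43-ckit-, library totals called 35 members higher (54.6% of all genes) and DESeq2 size factors 18. The members that library totals added there were Cse1l, Ipo4, Ipo7, Ipo13, Kpna2, Kpna3, Kpnb1, Nup54, Ran, Xpo1 and Xpo4. The share of all genes called under all 3 scalings together was not counted. In bulk samples such as these, fewer cells of a type and less RNA per cell cannot be told apart.

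Some calls rested on single libraries. Leaving out CD43++ckit+ library 1 or CD43++ckit+ library 2 left 19 members higher in CD43++ckit+ than CD43+ckit-, and Ipo8, Ipo9, Ipo11, Kpna2, Nup54, Nup188, Rcc1, Tnpo3, Xpo1, Xpo6 and the low row Nup62-il4i1 lost their calls in both cases. Ran was also lost without the first of these libraries, and Nup133 and Tnpo2 without the second. The share of all genes called without either library is not given here. Leaving out any single CD43+ckit- library cost Ipo9, Nup188, Rcc1 and Nup62-il4i1 their calls in that comparison. For CD43++ckit+ against CD43-ckit- the calls that some single library decided were those of Kpna4, Kpna6, Lbr and Nup88. For CD43+ckit- against CD43-ckit- they were those of Ipo5, Lmnb1, Nup43, Nup88, Nup210 and Tnpo2, and DESeq2 size factors ended the calls of Ipo5, Lmnb1, Nup43, Nup88, Nup107 and Tnpo2 there.

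**Figure D1:**
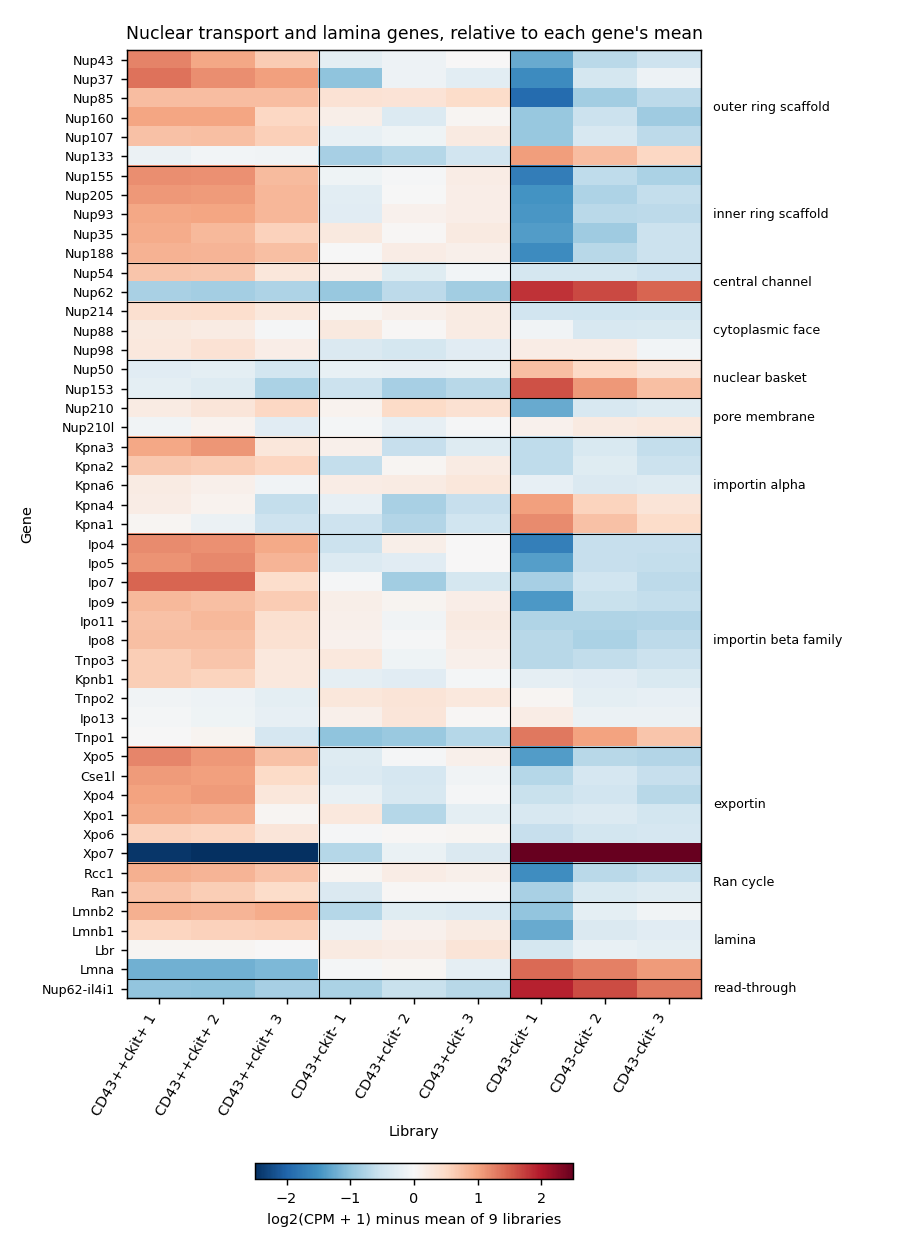
Each row is 1 of the 49 tested genes, grouped by role, and each column is 1 of the 9 libraries; colour gives log2(CPM + 1) minus the gene's mean over the 9 libraries, with the colour scale ending at 2.5 in both directions. Most rows are red in the 3 CD43++ckit+ columns, while Xpo7, Lmna, Nup62 and Nup153 are red in the 3 CD43-ckit- columns.

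Xpo7, which encodes exportin 7, had the largest difference of any member in both comparisons with CD43++ckit+. It was measured at 84.6, 73.9 and 78.8 CPM in the CD43++ckit+ libraries, 282, 412 and 358 in those of CD43+ckit-, and 5283, 3252 and 2702 in those of CD43-ckit-. No population overlapped another, and CD43-ckit- library 1, which also had the highest summed erythroid markers (47597 CPM), was the highest. The means were 79.1 ± 5.36 CPM in CD43++ckit+, 351 ± 65.3 in CD43+ckit-, and 3746 ± 1359 for CD43-ckit- (mean ± SD, n = 3 each). Xpo7 was 4.44-fold higher in CD43+ckit- than CD43++ckit+ (log2 fold change -2.15 ± 0.26 (SE, adjusted p = 0.000519) for CD43++ckit+ over CD43+ckit-), and a further 10.7-fold higher in CD43-ckit- than CD43+ckit- (-3.42 ± 0.27 (SE, adjusted p = 4.64e-05)). The log2 fold change of CD43++ckit+ over CD43-ckit- was -5.57 ± 0.30 (SE, adjusted p = 1.9e-06). With library totals the values were -1.89, -2.72 and -4.61 in the same order, all called. By count it ranked 2232 to 2752 among all genes in the CD43++ckit+ libraries, 390 to 677 in those of CD43+ckit- and 34 to 45 in those of CD43-ckit-. Of the erythroid markers, 10 of 10 were lower in CD43++ckit+ than CD43+ckit-, and 9 of 10 lower than CD43-ckit-. Of all genes tested, 20.1% and 27.7% were lower in these comparisons. Between CD43+ckit- and CD43-ckit- the Xpo7 difference was larger than in the first comparison. There 2 of 10 markers were lower and 1 higher, with 20.9% of all genes lower and 31% higher. The part of the erythroid markers in the Xpo7 difference was not tested.

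The other 5 exportins went the opposite way, and all 5 were higher in CD43++ckit+ than each of the other populations. Of all genes tested, 19.7% were higher in CD43++ckit+ than CD43+ckit- and 39.7% than CD43-ckit-. Xpo1, the exportin for cargo with leucine-rich export signals and the target of selinexor, was measured at 202, 197 and 107 CPM in the CD43++ckit+ libraries, 125, 62.8 and 88.0 in those of CD43+ckit-, and 78.7, 82.6 and 75.1 in those of CD43-ckit-. CD43++ckit+ library 3 lay below the other two libraries of its population and below CD43+ckit- library 1, so the populations overlapped. This library also had the highest summed neutrophil markers of its population (6891 CPM, against 406.6 and 110.1 in libraries 1 and 2), and their part in the value was not tested. The log2 fold change was 0.88 ± 0.29 (SE, adjusted p = 0.0368) against CD43+ckit- and 1.10 ± 0.29 (SE, adjusted p = 0.00798) against CD43-ckit-, and that between CD43+ckit- and CD43-ckit- was 0.22 (adjusted p = 0.52). The first of these calls was lost when only the 2 populations were fitted and without any 1 of 7 libraries, CD43++ckit+ library 3 and CD43+ckit- library 1 being the 2 without which it held. With library totals Xpo1 was also called higher in CD43+ckit- than CD43-ckit-. Xpo5, which exports microRNA precursors, was measured at 120.3, 111 and 86.3 CPM in the CD43++ckit+ libraries, 41.0, 50.3 and 56.2 in those of CD43+ckit-, and 18.9, 31.5 and 30.6 in those of CD43-ckit-, with no overlap between any populations. Its log2 fold changes were 1.11 ± 0.22 (SE, adjusted p = 0.00404), 1.97 ± 0.23 (SE, adjusted p = 9.5e-05) and 0.86 ± 0.22 (SE, adjusted p = 0.0107) in the order CD43++ckit+ over CD43+ckit-, CD43++ckit+ over CD43-ckit- and CD43+ckit- over CD43-ckit-. Cse1l, which returns importin alpha to the cytoplasm, had log2 fold changes of 1.18 (adjusted p = 0.00125) and 1.47 (adjusted p = 0.000143) for CD43++ckit+ over CD43+ckit- and over CD43-ckit-. Xpo4 had 1.06 (adjusted p = 0.00475) and 1.47 (adjusted p = 0.000388) in the same comparisons, and Xpo6, the exportin for actin, had 0.46 (adjusted p = 0.0104) and 0.97 (adjusted p = 0.000106).

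**Figure D2:**
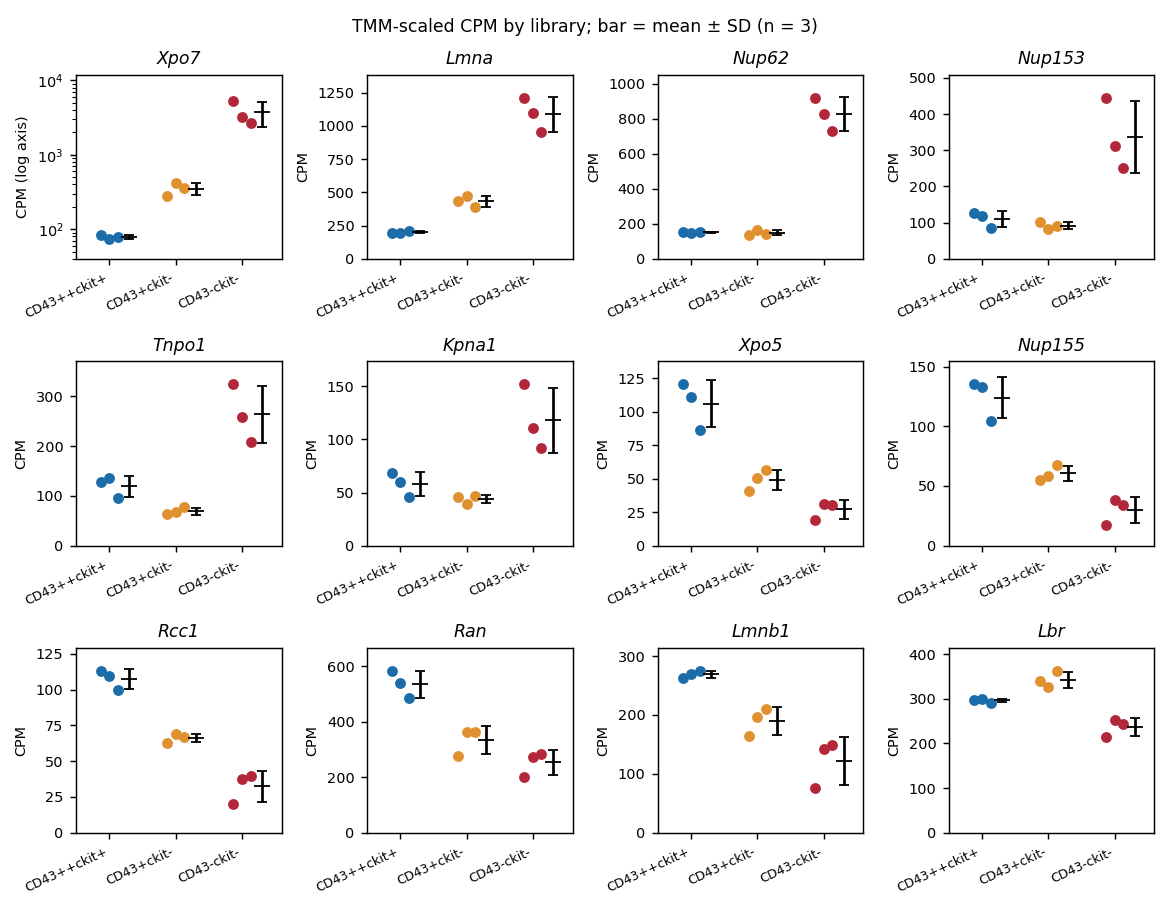
CPM on the y axis (logarithmic for Xpo7 alone) in the 3 libraries of each population for 12 genes; the bar beside the points is the mean ± SD, n = 3. In the Xpo7, Lmna, Nup62, Nup153, Tnpo1 and Kpna1 panels all 3 CD43-ckit- libraries lie above all others, while in the Xpo5, Nup155, Rcc1, Ran and Lmnb1 panels all 3 CD43++ckit+ libraries do.

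Of the 11 tested genes of the importin beta family, 9 were higher in CD43++ckit+ than CD43+ckit- and 1 was lower. Against CD43-ckit-, 8 were higher and 1 lower. Of all genes tested, 19.7% were higher and 20.1% lower in the first comparison, and 39.7% and 27.7% in the second. Kpnb1, importin beta itself, was measured at 483, 465 and 381 CPM in the CD43++ckit+ libraries, 272, 259 and 306 in those of CD43+ckit-, and 271, 258 and 244 in those of CD43-ckit-. The CD43++ckit+ libraries lay above all 6 others, with log2 fold changes of 0.67 ± 0.13 (SE, adjusted p = 0.00386) against CD43+ckit- and 0.78 ± 0.13 (SE, adjusted p = 0.000699) against CD43-ckit-. The value for CD43+ckit- over CD43-ckit- was 0.12 (adjusted p = 0.467) and their libraries overlapped, but with library totals Kpnb1 was called higher in CD43+ckit-. Ipo7, an importin of ribosomal proteins and histone H1, was measured at 118, 118 and 57.9 CPM in the CD43++ckit+ libraries, 42.0, 22.8 and 31.3 in those of CD43+ckit-, and 23.4, 29.8 and 26.8 in those of CD43-ckit-. CD43++ckit+ library 3 was again the lowest of its population but stayed above all 6 others, and the log2 fold changes were 1.61 ± 0.30 (SE, adjusted p = 0.00321) and 1.88 ± 0.31 (SE, adjusted p = 0.00062) against CD43+ckit- and CD43-ckit-. Ipo5 was measured at 235, 247 and 193 CPM in the CD43++ckit+ libraries, 83.9, 87.4 and 107 in those of CD43+ckit-, and 40.7, 71.9 and 70.0 in those of CD43-ckit-, without overlap between CD43++ckit+ and the rest. Its log2 fold changes were 1.28 ± 0.22 (SE, adjusted p = 0.00219) and 1.89 ± 0.23 (SE, adjusted p = 0.000114), and CD43+ckit- was above CD43-ckit- by 0.61 (adjusted p = 0.0427).

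Ipo4, an importin for histones and ribosomal proteins, was measured at 92.0, 90.4 and 78.0 CPM in the CD43++ckit+ libraries, 27.4, 44.6 and 40.7 in those of CD43+ckit-, and 11.5, 26.6 and 26.5 in those of CD43-ckit-. All 3 CD43++ckit+ libraries were above all others, and the log2 fold changes were 1.21 ± 0.30 (SE, adjusted p = 0.012) and 2.01 ± 0.31 (SE, adjusted p = 0.000455) against CD43+ckit- and CD43-ckit-. Between CD43+ckit- and CD43-ckit- it was 0.80 (adjusted p = 0.0513), and with the replicate number as a block in a fit of those 2 populations the adjusted p was 2.38e-05. Whether these numbers pair libraries is not known. Only 48.4% of the 50-base words of the Ipo4 transcripts were found in no other gene, the rest being shared with Gm49378, so its counts are uncertain. The remaining importins Ipo8, Ipo9, Ipo11 and Tnpo3, the last of which imports splicing factors rich in serine and arginine, had log2 fold changes of 1.39, 1.57, 1.45 and 1.16 for CD43++ckit+ over CD43-ckit-, and all 4 were called there and in both other comparisons. Ipo13, which carries cargo in both directions, was not called in any comparison (log2 fold changes -0.28, -0.10 and 0.18 in the order of the comparisons above), but this rested on the scaling. With library totals it was higher in CD43++ckit+ than CD43-ckit- (0.83, adjusted p = 4.78e-05) and in CD43+ckit- than CD43-ckit- (0.84, adjusted p = 0.000107), and with DESeq2 size factors it was lower in CD43++ckit+ than CD43-ckit- (-0.33, adjusted p = 0.0408).

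Tnpo1 and Tnpo2 did not follow the order of most members. Tnpo1, which imports RNA-binding proteins such as hnRNP A1, was measured at 127, 136 and 96.1 CPM in the CD43++ckit+ libraries, 63.3, 66.9 and 77.6 in those of CD43+ckit-, and 324, 258 and 209 in those of CD43-ckit-. CD43-ckit- was the highest population and CD43+ckit- the lowest, with no overlap. The log2 fold change was 0.79 ± 0.19 (SE, adjusted p = 0.0104) for CD43++ckit+ over CD43+ckit-, -1.14 ± 0.19 (SE, adjusted p = 0.00072) for CD43++ckit+ over CD43-ckit- and -1.93 ± 0.20 (SE, adjusted p = 0.000138) for CD43+ckit- over CD43-ckit-. With library totals in place of TMM the second of these was -0.21 (adjusted p = 0.208). Tnpo2, its close relative, was measured at 129, 125 and 114 CPM in the CD43++ckit+ libraries, 165, 171 and 165 in those of CD43+ckit-, and 141, 114 and 119 in those of CD43-ckit-. It was lower in CD43++ckit+ than CD43+ckit- (-0.45 ± 0.12 (SE, adjusted p = 0.0137)), a call that library totals did not keep (adjusted p = 0.129). CD43+ckit- over CD43-ckit- gave 0.42 (adjusted p = 0.0146), which was not called with the replicate number as a block in the fit of those 2 populations (adjusted p = 0.0565), and CD43++ckit+ over CD43-ckit- gave -0.02 (adjusted p = 0.854). This last result rested on the scaling. With library totals Tnpo2 was called higher in CD43++ckit+ than CD43-ckit-, and with the DESeq2 Wald test it was called lower.

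Of the 5 tested importin alpha genes, Kpna2 and Kpna3 had their highest mean in CD43++ckit+, Kpna1 and Kpna4 in CD43-ckit- and Kpna6 in CD43+ckit-. Kpna2 and Kpna3 were higher in CD43++ckit+ than CD43+ckit- (0.70 (adjusted p = 0.0197) and 1.08 (adjusted p = 0.00771)) and than CD43-ckit- (1.11 (adjusted p = 0.000996) and 1.40 (adjusted p = 0.000979)). Their means were 247 ± 11.3 CPM in CD43++ckit+, 152 ± 41.3 in CD43+ckit-, and 114 ± 13.6 for CD43-ckit- (mean ± SD, n = 3 each) for Kpna2 and 61.1 ± 17.1 CPM in CD43++ckit+, 29.0 ± 7.52 in CD43+ckit-, and 23.2 ± 2.21 for CD43-ckit- (mean ± SD, n = 3 each) for Kpna3. Kpna1 and Kpna4 were higher in CD43-ckit- than CD43++ckit+ (-1.02 (adjusted p = 0.00209) and -0.74 (adjusted p = 0.0307)) and than CD43+ckit- (-1.42 (adjusted p = 0.000791) and -1.19 (adjusted p = 0.00546)), and neither was called between CD43++ckit+ and CD43+ckit-. Kpna1 averaged 58.0 ± 11.4 CPM in CD43++ckit+, 44.0 ± 4.06 in CD43+ckit-, and 118 ± 30.5 for CD43-ckit- (mean ± SD, n = 3 each). Both results with CD43++ckit+ depended on the scaling. With library totals the value for CD43++ckit+ over CD43-ckit- was -0.09 for Kpna1 (adjusted p = 0.59) and turned to 0.19 for Kpna4 (adjusted p = 0.405). The value for CD43++ckit+ over CD43+ckit- was then called, at 0.65 for Kpna1 (adjusted p = 0.0079) and 0.70 for Kpna4 (adjusted p = 0.0218). Kpna6 was called higher in CD43++ckit+ than CD43-ckit- (0.39 (adjusted p = 0.0149)) and in CD43+ckit- than CD43-ckit- (0.53 (adjusted p = 0.00548)), and the first call was lost with DESeq2 size factors. Only 37.4% of the 50-base words of the Kpna2 transcripts occurred in no other gene, mostly because of the copies Gm10184 and Gm10259.

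Both genes of the Ran cycle were highest in CD43++ckit+. Ran was measured at 582, 541 and 485 CPM in the CD43++ckit+ libraries, 277, 362 and 363 in those of CD43+ckit-, and 201, 273 and 284 in those of CD43-ckit-. The CD43++ckit+ libraries were above all 6 others, while those of CD43+ckit- and CD43-ckit- overlapped. Its log2 fold changes were 0.68 ± 0.17 (SE, adjusted p = 0.0124), 1.08 ± 0.17 (SE, adjusted p = 0.00054) and 0.40 ± 0.17 (SE, adjusted p = 0.0748) in the order of the comparisons above, so the last did not pass the threshold, and the first was lost without CD43++ckit+ library 1 (adjusted p = 0.051). With library totals the last was called. Rcc1 was measured at 113, 109.7 and 99.8 CPM in the CD43++ckit+ libraries, 62.8, 69.0 and 66.5 in those of CD43+ckit-, and 19.95, 37.6 and 39.7 in those of CD43-ckit-, and none of the populations overlapped. Its log2 fold changes were 0.70 ± 0.22 (SE, adjusted p = 0.0331), 1.73 ± 0.23 (SE, adjusted p = 0.000198) and 1.03 ± 0.23 (SE, adjusted p = 0.00525). The first was lost without CD43++ckit+ library 1, CD43++ckit+ library 2 or any CD43+ckit- library (adjusted p 0.073 to 0.0927). Proliferation markers were higher in CD43++ckit+ than CD43-ckit- for 6 of 8 and lower for 1 of 8, where 39.7% and 27.7% of all genes were called. Against CD43+ckit-, 0 of 8 were higher and 1 was lower, where 19.7% and 20.1% of all genes were called. The part of these markers in the Ran and Rcc1 values was not tested.

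The scaffold of the pore was higher in CD43++ckit+ than CD43-ckit-, with 1 exception. All 5 inner ring genes were higher in CD43++ckit+ than CD43-ckit-, with log2 fold changes from 1.72 to 2.05. All 5 were also higher in CD43+ckit- than CD43-ckit-, from 0.90 to 1.19. Of all genes tested, 39.7% and 31% were higher in these comparisons. Nup155, which anchors the ring, was measured at 135, 133 and 104 CPM in the CD43++ckit+ libraries, 55.4, 58.4 and 67.6 in those of CD43+ckit-, and 17.3, 37.9 and 34.2 in those of CD43-ckit-, with no overlap. Its log2 fold changes were 1.03 ± 0.26 (SE, adjusted p = 0.0119), 2.05 ± 0.27 (SE, adjusted p = 0.000182) and 1.02 ± 0.26 (SE, adjusted p = 0.0108) in the order of the comparisons above. Nup35, which contacts the membrane, was measured at 23.2, 21.3 and 18.02 CPM in the CD43++ckit+ libraries, 14.2, 12.0 and 13.8 in those of CD43+ckit-, and 3.85, 5.89 and 7.75 in those of CD43-ckit-, also without overlap, and gave 0.65 ± 0.24 (SE, adjusted p = 0.0566), 1.84 ± 0.25 (SE, adjusted p = 0.000212) and 1.19 ± 0.24 (SE, adjusted p = 0.00379). The first of these missed the threshold, but was called with library totals and when only those 2 populations were fitted. Part of the Nup35 transcript is shared with a copy, Gm4353, and 60.8% of its 50-base words occurred in no other gene. Nup93, Nup188 and Nup205, which build the rest of the ring, had log2 fold changes of 1.85, 1.72 and 1.93 for CD43++ckit+ over CD43-ckit-.

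In the outer ring, 5 of 6 genes were higher in CD43++ckit+ than CD43-ckit- and 1, Nup133, was lower. Of all genes tested, 39.7% were higher and 27.7% lower there. Nup37 was measured at 26.7, 23.2 and 21.1 CPM in the CD43++ckit+ libraries, 4.44, 8.95 and 8.01 in those of CD43+ckit-, and 2.67, 7.07 and 8.90 in those of CD43-ckit-. The CD43++ckit+ libraries were above the rest, and the CD43+ckit- and CD43-ckit- libraries overlapped. The log2 fold changes were 1.73 ± 0.41 (SE, adjusted p = 0.00895) and 1.93 ± 0.41 (SE, adjusted p = 0.00279) against CD43+ckit- and CD43-ckit-, the first being the largest increase of any member between CD43++ckit+ and CD43+ckit-. Nup43 was measured at 19.5, 16.1 and 12.7 CPM in the CD43++ckit+ libraries, 6.35, 6.98 and 7.79 in those of CD43+ckit-, and 2.67, 4.45 and 5.10 in those of CD43-ckit-, with no overlap, and gave 1.19 ± 0.26 (SE, adjusted p = 0.00676), 1.98 ± 0.27 (SE, adjusted p = 0.000249) and 0.79 ± 0.27 (SE, adjusted p = 0.0354). Nup85 was measured at 135, 135 and 135 CPM in the CD43++ckit+ libraries, 102, 99.8 and 108 in those of CD43+ckit-, and 19.95, 42.7 and 49.6 in those of CD43-ckit-, and here the larger step lay between CD43+ckit- and CD43-ckit-: 1.46 ± 0.27 (SE, adjusted p = 0.00245), against 0.39 (adjusted p = 0.288) for CD43++ckit+ over CD43+ckit-. The smaller step, also without overlap, was called when only those 2 populations were fitted and without CD43-ckit- library 1. CD43-ckit- library 1 was the lowest library for Nup37, Nup43 and Nup85, as it was for Nup155 and Nup35.

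Nup133, a neighbour of Nup107 in the outer ring, averaged 65.8 ± 1.91 CPM in CD43++ckit+, 44.6 ± 5.76 in CD43+ckit-, and 123 ± 22.2 for CD43-ckit- (mean ± SD, n = 3 each). It was higher in CD43++ckit+ than CD43+ckit- (0.56 (adjusted p = 0.0175)), yet lower in both than CD43-ckit- (-0.91 (adjusted p = 0.00073) and -1.47 (adjusted p = 0.000164)). With library totals the difference between CD43++ckit+ and CD43-ckit- was 0.03 (adjusted p = 0.863), while that between CD43+ckit- and CD43-ckit- was -0.80 (adjusted p = 0.000993). The other outer ring genes, Nup107 and Nup160, had log2 fold changes of 1.38 and 1.66 for CD43++ckit+ over CD43-ckit-, and both were also called in the other comparisons.

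**Figure D3:**
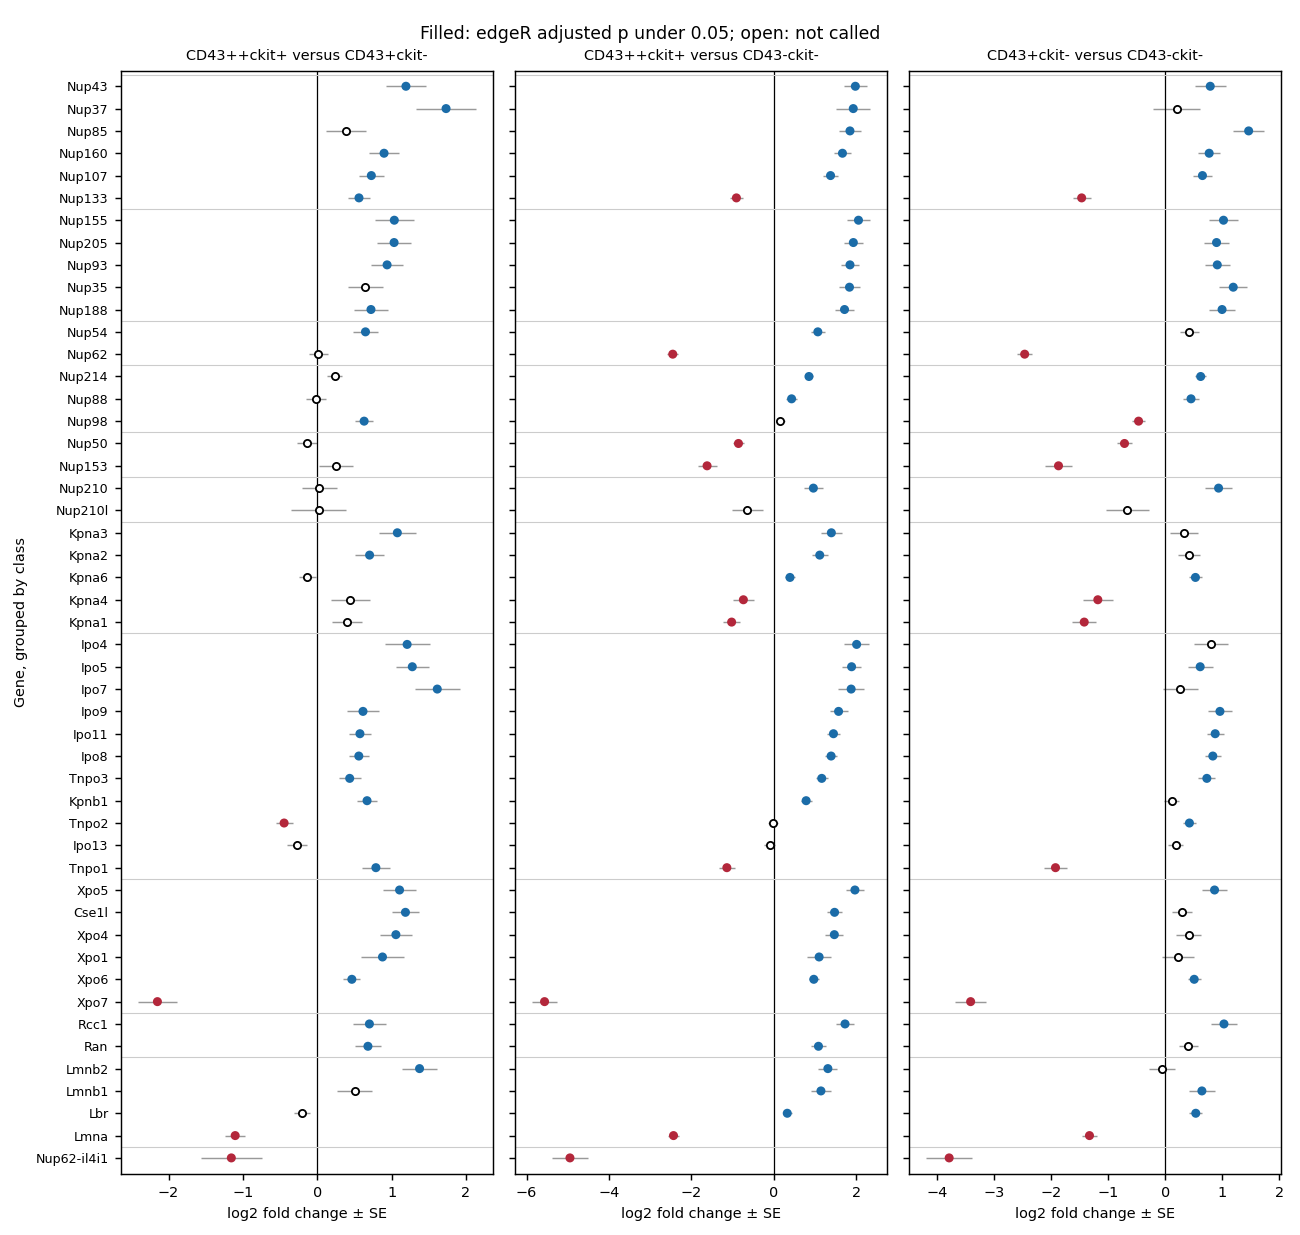
Log2 fold change ± SE on the x axis for the 49 tested genes, in 1 panel per comparison, with filled points for genes called (Benjamini-Hochberg adjusted p below 0.05) and open points for the rest. Most filled points lie right of 0 in all 3 panels, and Xpo7 and Nup62-il4i1 lie farthest left in the 2 panels against CD43-ckit-.

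Nucleoporins of the channel and basket included those that were highest in CD43-ckit-. Nup62, which with Nup54 and Nup58 fills the central channel, was measured at 151, 147 and 153 CPM in the CD43++ckit+ libraries, 137, 167 and 143 in those of CD43+ckit-, and 920.0, 826 and 728 in those of CD43-ckit-. The CD43-ckit- libraries lay far above all 6 others, and the CD43++ckit+ and CD43+ckit- libraries overlapped. Its means were 151 ± 3.25 CPM in CD43++ckit+, 149 ± 15.6 in CD43+ckit-, and 825 ± 95.8 for CD43-ckit- (mean ± SD, n = 3 each), and the CD43-ckit- mean was 5.48-fold that of CD43++ckit+ in the fit (log2 fold change -2.45 ± 0.14 (SE, adjusted p = 2.06e-06) for CD43++ckit+ over CD43-ckit-). The value was -2.47 ± 0.14 (SE, adjusted p = 2.25e-05) for CD43+ckit- over CD43-ckit- and 0.02 (adjusted p = 0.945) for CD43++ckit+ over CD43+ckit-. With library totals the values against CD43-ckit- were smaller but called, at -1.53 for CD43++ckit+ and -1.81 for CD43+ckit-. Nup54 went the other way, with 0.65 (adjusted p = 0.0126) and 1.07 (adjusted p = 0.000471) for CD43++ckit+ over CD43+ckit- and over CD43-ckit-. Nup58, in the row Nupl1, gave 0.27 (adjusted p = 0.244) and 0.61 (adjusted p = 0.0121) in the same comparisons. A row for the read-through transcript Nup62-il4i1 was low, at 0.154, 0.137 and 0.290 CPM in the CD43++ckit+ libraries, 0.336, 0.570 and 0.417 in those of CD43+ckit-, and 7.70, 6.09 and 4.74 in those of CD43-ckit-, and had log2 fold changes of -4.95 (adjusted p = 2.08e-05) and -3.79 (adjusted p = 0.000166) for the 2 comparisons with CD43-ckit-. It overlaps Nup62 and Il4i1, and the strand handling of the counting is not stated, so reads could have been split between these rows.

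Both basket genes among the members, Nup153 and Nup50, were higher in CD43-ckit- than either other population with TMM. Nup153 was so under all 3 scalings. Of all genes tested, 27.7% were higher in CD43-ckit- than CD43++ckit+ and 20.9% than CD43+ckit-. The basket genes Zc3hc1 and Tpr, of the wider list described below, were not called higher in CD43-ckit-. Zc3hc1 was higher in CD43++ckit+ and in CD43+ckit- than CD43-ckit- (0.82 (adjusted p = 0.000351) and 0.85 (adjusted p = 0.000647)). Tpr was not called in these comparisons (0.97 (adjusted p = 0.0814) and 0.32 (adjusted p = 0.555)). Nup153, which tethers the basket and binds importins, was measured at 125, 118 and 84.7 CPM in the CD43++ckit+ libraries, 102, 82.8 and 90.6 in those of CD43+ckit-, and 445, 312 and 251 in those of CD43-ckit-. The CD43-ckit- libraries did not overlap the others, with -1.62 ± 0.23 (SE, adjusted p = 0.000281) for CD43++ckit+ over CD43-ckit- and -1.88 ± 0.23 (SE, adjusted p = 0.000345) for CD43+ckit- over CD43-ckit-. With library totals these were -0.68 and -1.19, both called. CD43++ckit+ over CD43+ckit- gave 0.25 (adjusted p = 0.412) with TMM and 0.51 (adjusted p = 0.0236) with library totals. Nup50, which binds importin alpha and Nup153, averaged 121 ± 9.88 CPM in CD43++ckit+, 133 ± 1.87 in CD43+ckit-, and 219 ± 34.7 for CD43-ckit- (mean ± SD, n = 3 each) and gave -0.86 (adjusted p = 0.0005) and -0.72 (adjusted p = 0.00252) for the 2 comparisons with CD43-ckit-. With library totals the Nup50 values were 0.07 (adjusted p = 0.494) and -0.05 (adjusted p = 0.612), so the first turned direction and neither was called.

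On the cytoplasmic face, Nup214, which docks exportin complexes on the cytoplasmic side, and Nup88, its partner, were higher in CD43++ckit+ than CD43-ckit- (0.85 (adjusted p = 0.000115) and 0.43 (adjusted p = 0.0191)), the Nup88 call being lost with DESeq2 size factors. Nup98, a repeat-rich nucleoporin found as a fusion partner in leukaemia, was higher in CD43++ckit+ than CD43+ckit- (0.63 (adjusted p = 0.00311)) and lower in CD43+ckit- than CD43-ckit- (-0.47 (adjusted p = 0.00962)), and with library totals the latter value turned to 0.18 (adjusted p = 0.189). CD43++ckit+ over CD43-ckit- gave 0.16 (adjusted p = 0.245), but with library totals Nup98 was called higher in CD43++ckit+. Nup210, the membrane nucleoporin, was higher in both other populations than CD43-ckit- (0.96 (adjusted p = 0.0058) and 0.93 (adjusted p = 0.0101)) and its paralogue Nup210l was not called in any comparison.

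Lmna and the B-type lamins differed in opposite directions between CD43++ckit+ and CD43-ckit-. For CD43+ckit- over CD43-ckit-, Lmnb1 gave 0.64 (adjusted p = 0.0446) and Lmnb2 -0.06 (adjusted p = 0.828). Lmna, which encodes lamins A and C, was measured at 198, 198 and 208 CPM in the CD43++ckit+ libraries, 438, 469 and 389 in those of CD43+ckit-, and 1214, 1095 and 955 in those of CD43-ckit-, and no population overlapped another. Its means were 201 ± 5.92 CPM in CD43++ckit+, 432 ± 40.7 in CD43+ckit-, and 1088 ± 129.7 for CD43-ckit- (mean ± SD, n = 3 each). The log2 fold change was -1.10 ± 0.13 (SE, adjusted p = 0.00053) for CD43++ckit+ over CD43+ckit-, -2.44 ± 0.14 (SE, adjusted p = 2.22e-06) for CD43++ckit+ over CD43-ckit- and -1.33 ± 0.13 (SE, adjusted p = 0.000128) for CD43+ckit- over CD43-ckit-, so the CD43-ckit- level was 5.41-fold that of CD43++ckit+ with TMM. With library totals these values were -0.83, -1.51 and -0.67, all still called. Lmnb1, a B-type lamin present in most cells, was measured at 263, 269 and 274 CPM in the CD43++ckit+ libraries, 164, 196 and 209 in those of CD43+ckit-, and 74.9, 141 and 149 in those of CD43-ckit-, with no overlap between CD43++ckit+ and either other population. It was higher in CD43++ckit+ than CD43-ckit- (1.14 ± 0.24 (SE, adjusted p = 0.00217)), and the value against CD43+ckit- was 0.50 (adjusted p = 0.117). The latter was called when only those 2 populations were fitted and without CD43-ckit- library 1. Lmnb2 was measured at 59.8, 58.1 and 61.0 CPM in the CD43++ckit+ libraries, 18.8, 25.5 and 24.6 in those of CD43+ckit-, and 15.4, 26.7 and 29.9 in those of CD43-ckit-, and the CD43++ckit+ libraries were above all others (1.37 ± 0.23 (SE, adjusted p = 0.00197) and 1.31 ± 0.23 (SE, adjusted p = 0.000965)). Lbr, the lamin B receptor of the inner nuclear membrane, was measured at 298, 299.9 and 292 CPM in the CD43++ckit+ libraries, 339, 326 and 362 in those of CD43+ckit-, and 214, 253 and 243 in those of CD43-ckit-. It was highest in CD43+ckit-, and CD43+ckit- over CD43-ckit- gave 0.53 ± 0.11 (SE, adjusted p = 0.0041), while CD43++ckit+ over CD43+ckit- gave -0.21 (adjusted p = 0.171). Its call between CD43++ckit+ and CD43-ckit- (0.33 (adjusted p = 0.0271)) was lost with DESeq2 size factors (log2 fold change 0.08, adjusted p = 0.528).

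Ratios of 2 genes' counts within a library do not depend on the scaling, and their changes between populations are free of gene length. The pairs were picked after their values were seen and are descriptions. The Xpo7 to Xpo1 ratio ranged from 0.375 to 0.733 in the CD43++ckit+ libraries, from 2.25 to 6.56 in CD43+ckit- and from 36.0 to 67.1 in CD43-ckit-. For Lmna to Lmnb1 the ranges were 0.735 to 0.759, 1.86 to 2.67 and 6.42 to 16.2. For Nup62 to Nup54 they were 3.81 to 5.24, 5.18 to 8.63 and 44.1 to 52.8, and for Nup153 to Nup107 1.23 to 1.65, 1.72 to 2.56 and 8.81 to 19.4. Tnpo1 to Tnpo3 gave 1.06 to 1.12, 0.701 to 0.955 and 4.08 to 7.01, and Nup133 to Nup107 gave 0.836 to 0.962, 0.965 to 1.03 and 3.56 to 6.39. In every one of these ratios the CD43-ckit- libraries lay above the other 6.

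The whole set of 51 genes took 0.775% to 0.815% of all counts in the CD43++ckit+ libraries, 0.493% to 0.583% in those of CD43+ckit- and 0.615% to 0.657% in those of CD43-ckit-. Without Xpo7 the shares were 0.764% to 0.806%, 0.463% to 0.543% and 0.343% to 0.418%. Xpo7 alone made up 1.16% to 1.43% of the set's counts for CD43++ckit+, 6.03% to 8.26% for CD43+ckit- and 34.1% to 47.6% for CD43-ckit-. Over the same populations the importin beta family went from 24.2% to 26.3% of the set's counts, to 20.9% to 22.6%, to 9.89% to 12.2%, and the inner ring from 8.82% to 8.85%, to 5.46% to 6.09%, to 0.827% to 2.26%. Each class share is of one total, so a larger Xpo7 share makes the others smaller.

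**Figure D4:**
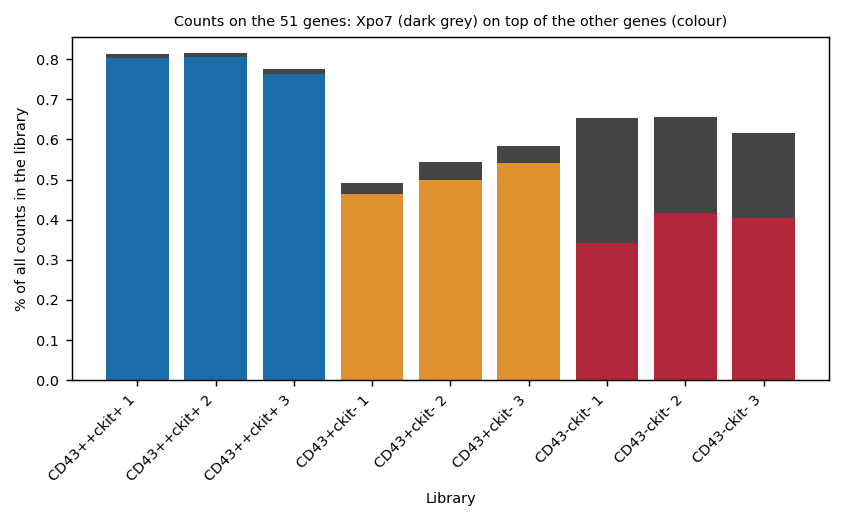
Counts of the 51 genes as a percent of all counts in each of the 9 libraries, with the part from Xpo7 drawn apart from the rest. The CD43-ckit- bars reach 0.615% to 0.657%, of which 0.210% to 0.311% of all counts is Xpo7, while Xpo7 is 0.00946% to 0.0111% in CD43++ckit+.

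A wider list of 66 genes of nuclear transport, the envelope and messenger RNA export was read beside the members, and the 62 with a row were all tested. Of these, 15 were higher and 6 lower in CD43++ckit+ than CD43+ckit-, 34 and 10 in CD43++ckit+ than CD43-ckit-, and 29 and 10 in CD43+ckit- than CD43-ckit-, with medians of 0.24, 0.67 and 0.40. These are 24.2% and 9.68%, 54.8% and 16.1%, and 46.8% and 16.1% of the list, where 19.7% and 20.1%, 39.7% and 27.7%, and 31% and 20.9% of all genes were called. Ranbp10, a Ran-binding protein, was lowest in CD43++ckit+ and highest in CD43-ckit-: it was measured at 106, 108 and 160.0 CPM in the CD43++ckit+ libraries, 982, 962 and 870.0 in those of CD43+ckit-, and 6452, 4180.2 and 3639.8 in those of CD43-ckit-, without overlap, and gave log2 fold changes of -2.91 (adjusted p = 0.000307), -5.25 (adjusted p = 1.93e-06) and -2.34 (adjusted p = 0.000182). Tor1aip1 and Tmem43, proteins of the inner nuclear membrane, were also highest in CD43-ckit-, with -2.15 (adjusted p = 1.39e-05) and -1.08 (adjusted p = 5.79e-05) for CD43++ckit+ over CD43-ckit- and -1.24 (adjusted p = 0.000535) and -1.72 (adjusted p = 2.98e-05) for CD43+ckit- over CD43-ckit-. The Tmem43 value against CD43++ckit+ was -0.17 (adjusted p = 0.251) with library totals. Tmem43 was higher in CD43++ckit+ than CD43+ckit- (0.64 (adjusted p = 0.00236)).

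Xpot, the exportin for transfer RNA, and Nmd3, the adaptor that exports the large ribosomal subunit with Xpo1, were higher in CD43++ckit+ than CD43+ckit- (1.14 (adjusted p = 0.00129) and 1.14 (adjusted p = 0.00249)). Ncbp1 and Ncbp2, the cap-binding complex, and Gle1, which acts in messenger RNA release at the pore, were higher in CD43++ckit+ than CD43-ckit- (1.44 (adjusted p = 8.71e-05), 1.89 (adjusted p = 8.52e-05) and 1.24 (adjusted p = 3.6e-05)). Lemd2 and Sun1, which link chromatin and the cytoskeleton to the envelope, were lower in CD43++ckit+ than CD43+ckit- (-1.06 (adjusted p = 0.000986) and -0.64 (adjusted p = 0.00144)). Sun1, Gle1 and Sec13, a shared part of the outer ring and the COPII coat, were higher in CD43+ckit- than CD43-ckit- (0.90 (adjusted p = 0.000222), 1.00 (adjusted p = 0.000272) and 0.86 (adjusted p = 0.000311)).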

How the data were processed

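RNA was extracted with Trizol and libraries were made with a TruSeq kit, per the labels' protocols. The authors deposited whole-number counts per gene symbol for 9 libraries. The tools listed per the submitters' processing notes are CASAVA 1.8, TopHat2 2.0.4, RSEM, edgeR and HTSeq, with no role attached. The build listed there is human although the symbols are mouse, so build, annotation and strand handling of the counts were not given in the sources used here.

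Counts were tested with edgeR 4.0.16 (R 4.3.3): filterByExpr (minimum count 10, minimum total 15), TMM, a model of 3 population means over all 9 libraries, robust glmQLFit and glmQLFTest, with Benjamini-Hochberg adjustment over 12573 genes and calls at 0.05. The SE is the log2 fold change divided by the square root of F. The fit was also run on simulated counts with few changed genes and 1 spread for all genes. The data differ from this, as many genes were called, so that run does not test the calls given here. Members and lists were chosen with earlier results of these data known. Values in every library are given for 9 members chosen by name. Per comparison and direction, they are also given for the 4 called members with the largest change whose average log2 CPM was 3 or more. Of the other transport genes, the 3 with the smallest adjusted p are named, with Tpr, Zc3hc1 and Nupl1 added as basket and channel genes. No 2 libraries of a population agreed within sampling noise (chi-square over its degrees of freedom, 16.0 to 124.8). Deviations of same-numbered CD43+ckit- and CD43-ckit- libraries correlated at 0.525, 0.366 and 0.303, which met the rule of every pair over 0.1. Libraries numbered 2 and 3 correlated as much across numbers (0.343 and 0.349), so these values do not show that the numbers pair libraries. Same-numbered pairs with CD43++ckit+ did not meet the rule (-0.617 to 0.447). The replicate number was a block in alternative runs only. Shared sequence was counted as 50-base words in GENCODE M21 transcripts. DESeq2 1.42.0, other scalings and filters, and left-out libraries were tried as alternatives.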

Additional observations from a re-analysis of the deposited data

How the results depend on the processing

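No called member was called in the opposite direction under any alternative run. With library totals 4 called members changed sign without a call: Kpna4 (0.19), Nup133 (0.03) and Nup50 (0.07) between CD43++ckit+ and CD43-ckit-, and Nup98 (0.18) between CD43+ckit- and CD43-ckit-. Leaving out 1 library at a time gave 19 to 32 members higher and 2 to 5 lower between CD43++ckit+ and CD43+ckit-, the 2 from leaving out CD43++ckit+ library 2. Library totals gave 2 members lower in that comparison and 5 between CD43++ckit+ and CD43-ckit-, where 13.8% and 13.3% of all genes were lower.

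Among other transport genes, library totals gave 27 higher between CD43++ckit+ and CD43+ckit-, 3 lower between CD43++ckit+ and CD43-ckit-, and 46 higher and 4 lower between CD43+ckit- and CD43-ckit-. Of all genes, library totals called 27.9%, 13.3%, 54.6% and 9.47% in the same order. DESeq2 size factors gave 17 and the DESeq2 Wald test 18 lower between CD43++ckit+ and CD43-ckit-, and the Wald test 16 lower between CD43+ckit- and CD43-ckit-. With DESeq2 size factors 33.5% of all genes were lower between CD43++ckit+ and CD43-ckit-. Leaving out the least like library of each population together, chosen after seeing the data, gave 33 higher between CD43++ckit+ and CD43+ckit- and 16 lower between CD43+ckit- and CD43-ckit-. The cause was not tested. Shares of all genes under the Wald test, the left-out libraries and the replicate block are not given here.

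With the replicate number as a block in a fit of the 2 populations compared, 16 other transport genes were lower between CD43+ckit- and CD43-ckit-, against 10 without it, while members stayed at 24 higher and 11 lower. With the block over all 9 libraries, members were 28 higher and 3 lower between CD43++ckit+ and CD43+ckit- and 35 and 10 between CD43++ckit+ and CD43-ckit-, and Nup43 lost its call between CD43+ckit- and CD43-ckit- (adjusted p = 0.0525).

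Among the genes named by rule, the values that changed sign were not called with TMM. Between CD43+ckit- and CD43-ckit-, Xpo1 ranged from -0.047 to 0.37 leaving out 1 library and gave -0.059 without the least like libraries. Kpnb1 gave -0.081 with DESeq2 size factors and with the Wald test, and Ipo7 -0.059 without the least like libraries. Lmnb2 gave 0.55 with library totals, 0.042 unfiltered and -0.29 to 0.13 leaving out 1 library. Nup37 gave -0.00103 with DESeq2 size factors, -0.00082 with the Wald test and -0.15 to 0.55 leaving out 1 library. Between CD43++ckit+ and CD43+ckit-, Lbr gave 0.058 and Sec13 0.028 with library totals. Nup62 gave -0.029 with DESeq2 size factors and with the Wald test, -0.012 with the strict filter (50 counts in 3 libraries), -0.060 without the least like libraries and -0.044 to 0.15 leaving out 1 library. Between CD43++ckit+ and CD43-ckit-, Tnpo2 gave 0.90 with library totals, 0.092 unfiltered, 0.12 without the least like libraries and -0.081 to 0.081 leaving out 1 library, and Lemd2 gave 0.57 with library totals. The Tnpo2 value with library totals was called.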
